A study of Mus musculus with 96 samples.

Results

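A set of 10 transcription factor genes that act while haematopoietic cells form from endothelium were followed through 96 single cells of mid-gestation mouse embryos. The members are Runx1, Gfi1, Gfi1b, Tal1, Lmo2, Lyl1, Gata2, Fli1, Spi1 and Myb, each taken as the row of the count table with that gene name. All 10 were found among 19836 genes. The study set precursors of haematopoietic stem cells (pre-HSCs) at embryonic stage E11.5 beside stem cells of the fetal liver, to follow the step between them. All embryos were C57BL/6 with no engineered allele or treatment named, and every well was sorted to hold 1 cell. The 48 cells of the aorta-gonad-mesonephros region (AGM) and the 16 yolk sac cells, both at E11.5, carry 1 gate in the labels: negative for Ter119 and CD11b, positive for CD144, c-kit and EPCR. The 16 fetal liver cells at E12.5 were negative for Ter119, with Sca-1, c-kit and EPCR present. The 16 at E14.5 were without Ter119 and CD48, with Sca-1, c-kit and CD150 present. Tissue, age and gate therefore cannot be told apart when liver is set beside AGM, nor can age and gate between the E12.5 and E14.5 liver cells. Since neither animals nor litters are identified in the labels, a group counts as 1 sample, and differences below were not tested and have no replicate check.

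Blood stem cells arise in the embryo when specialised endothelial cells of the dorsal aorta and other large vessels lose their vessel character and bud off as haematopoietic cells. Runx1, which binds DNA with its partner Cbfb, is required for this step, and its targets Gfi1 and Gfi1b encode related repressors that shut down endothelial genes by recruiting the demethylase Kdm1a and its complex. Tal1, Lyl1, Lmo2, Gata2, Fli1 and Runx1, together with Erg, bind many of the same regulatory elements in blood stem and progenitor cells. Spi1 (PU.1) and Myb act in the haematopoietic cells that result, Spi1 mainly toward myeloid and lymphoid fates and Myb in definitive progenitors.

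The promoters of the Runx1, Gfi1 and Gfi1b genes are shown because they encode the initiating factor and the paralogous repressors downstream of it. In mm10 (GRCm38) Runx1 lies on chr16:92601466-92826149 (minus strand), Gfi1 on chr5:107716657-107726036 (minus strand) and Gfi1b on chr2:28609450-28621982 (minus strand). RefSeq (GRCm38.p6) gives windows from 250 bases before to 50 bases after a start site. They were found for 7 of the 10 members, 11 windows in all, and those of Lmo2, Fli1 and Spi1 were not analysed here. Capitals mark short words that were searched on both strands. The RUNX word was TGTGGT. The words for GATA factors were AGATAA and, with a different leading letter, the closely related TGATAA. ETS words were CCGGAA, the common core in many promoters, and the other frequent form AGGAAG. The E-box word was CAGCTG. The GFI word was AAATCA. No matched word overlapped another. Windows are written 5′ to 3′ on the gene's strand.
Runx1 start 1, chr16:92826025-92826324: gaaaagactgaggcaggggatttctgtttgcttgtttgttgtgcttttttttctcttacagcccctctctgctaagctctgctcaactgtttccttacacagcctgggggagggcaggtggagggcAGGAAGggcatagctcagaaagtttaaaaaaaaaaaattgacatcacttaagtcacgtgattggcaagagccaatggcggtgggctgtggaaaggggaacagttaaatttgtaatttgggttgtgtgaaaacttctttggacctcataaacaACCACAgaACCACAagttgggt
Runx1 start 2, chr16:92697280-92697579: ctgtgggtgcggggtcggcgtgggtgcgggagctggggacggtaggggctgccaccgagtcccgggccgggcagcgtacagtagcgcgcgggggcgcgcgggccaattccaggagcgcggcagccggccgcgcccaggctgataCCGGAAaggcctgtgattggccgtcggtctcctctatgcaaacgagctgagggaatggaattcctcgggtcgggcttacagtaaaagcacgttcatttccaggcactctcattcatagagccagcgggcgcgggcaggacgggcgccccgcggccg
Gfi1b, chr2:28621933-28622232: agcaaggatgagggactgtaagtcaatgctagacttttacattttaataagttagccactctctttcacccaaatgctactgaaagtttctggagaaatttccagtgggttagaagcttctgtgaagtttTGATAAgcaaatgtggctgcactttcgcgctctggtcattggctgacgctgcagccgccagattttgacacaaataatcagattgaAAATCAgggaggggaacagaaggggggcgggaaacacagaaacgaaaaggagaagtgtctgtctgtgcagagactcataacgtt
Gfi1 start 1, chr5:107725756-107726055: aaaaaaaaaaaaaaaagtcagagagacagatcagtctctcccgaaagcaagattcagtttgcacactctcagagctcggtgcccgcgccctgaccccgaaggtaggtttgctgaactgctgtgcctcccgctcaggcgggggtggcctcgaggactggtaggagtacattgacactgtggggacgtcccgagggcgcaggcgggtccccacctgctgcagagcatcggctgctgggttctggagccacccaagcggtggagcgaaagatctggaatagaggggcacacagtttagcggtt
Gfi1 start 2, chr5:107724294-107724593: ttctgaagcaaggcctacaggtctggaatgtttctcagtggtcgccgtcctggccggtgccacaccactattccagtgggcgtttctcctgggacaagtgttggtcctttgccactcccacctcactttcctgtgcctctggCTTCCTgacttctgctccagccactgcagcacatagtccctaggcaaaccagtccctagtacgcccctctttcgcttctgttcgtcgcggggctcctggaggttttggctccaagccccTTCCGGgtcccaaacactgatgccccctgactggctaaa
Runx1 start 1 lies at the far end of the gene and held 2 RUNX words, read on the other strand as ACCACA, at positions 28 and 36 from the start site, and 1 ETS word. Start 2, inside the gene, held 1 ETS word. The Gfi1b window held the GATA word TGATAA 120 bases upstream and the GFI word AAATCA 34 bases upstream. The first Gfi1 window held no searched word and the second held 2 ETS words. Of all 32851 windows of this length, 16.8% held the RUNX word, 18.6% a GATA word, 45.2% an ETS word, 16.3% the E-box word and 14% the GFI word. These matches are letters in a window and were not tested as binding sites.

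Depth ran from 250235 to 1926882 reads per cell, with group medians between 1164184 and 1446148. E12.5 liver cells had the fewest genes detected, with a median of 4036 against 5522.5 in AGM, and E12.5 cell 8 had 1011. In E14.5 liver, 4 cells (3, 8, 13 and 16) stood apart, with erythroid markers summing to 47151 CPM or more (CPM being reads of a gene per 1000000 reads) where the other 12 reached at most 1510 CPM. E12.5 cell 8 had an erythroid sum of 14027 CPM, and the next highest E12.5 cell, cell 2, had 2217 CPM. No read of Cdh5 or Procr, which encode the sort markers CD144 and EPCR, was found in 8 of the 16 yolk sac cells, whose labels give that gate. Mesenchymal markers had a median sum of 0 CPM in all 4 groups. No cell shared a barcode, and no pair of cells had identical columns.

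Runx1, the initiating factor, was read in most E11.5 cells, and its pooled level over all cells of a group was lower in liver. Pooled over the cells of a group, it stood at 89.0 CPM in AGM, 108 in yolk sac, 64.5 CPM in E12.5 liver and 51.4 CPM in E14.5 liver, and the exact 95% Poisson intervals of these values did not overlap. Single AGM cells ran from 0 to 570 CPM with a median of 77.7, and yolk sac cells from 0 to 255 CPM with a median of 90.6. E12.5 cells ran from 0 to 273 CPM with a median of 17.4, and E14.5 cells from 0 to 221.6 CPM with a median of 26.6. Each of these ranges began at 0, so they had to overlap, and the group medians were lower in both liver groups. Runx1 reads reached 42 of the 48 cells in AGM (87.5%, exact Clopper-Pearson 95% interval 74.7% to 95.3%), 15 of 16 in yolk sac, 10 of 16 in E12.5 liver (62.5%, 35.4% to 84.8%) and 12 of 16 in E14.5 liver. Intervals cover counting error only, since reads amplified by PCR without molecular identifiers are not independent molecules. E12.5 cell 13 held 39.6% of that group's Runx1 reads, and without it the E12.5 value was 42.96 CPM. Log2 ratios below are of pooled CPM after adding 1 CPM, a scale that understates differences of low genes. They were 0.28 for yolk sac over AGM, −0.46 for E12.5 liver over AGM and −0.32 for E14.5 over E12.5 liver. With only cells of 4000 or more genes the E12.5 ratio was −0.0037, so the lower E12.5 pool was not seen in those cells. They include E12.5 cell 13 (6261 genes), and this ratio was not computed without it. Without the 4 erythroid-marked E14.5 cells the intervals of the liver groups overlapped.

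Gfi1 and Gfi1b, the repressors downstream of Runx1, were the members found in the fewest cells. Gfi1 reads reached 21 of 48 cells in AGM (43.75%, interval 29.5% to 58.8%), 4 of 16 in yolk sac (25%, 7.27% to 52.4%), 6 in E12.5 and 5 in E14.5 liver. Its pooled level was 36.8 CPM in AGM (35.3 to 38.4), 6.10 in yolk sac (5.11 to 7.21), 81.3 CPM in E12.5 liver and 68.1 CPM in E14.5 liver. The median cell of every group was at 0. The highest yolk sac cell had 29.2 CPM, while the highest cells of AGM, E12.5 and E14.5 liver had 249, 320.5 and 1081 CPM. Among cells with a read, the median level was 61.6 CPM in AGM and 21.5 CPM in yolk sac, so the yolk sac cells were both fewer by share and lower. In E14.5 liver, cell 14 held 53.0% of the Gfi1 reads, and the group stood at 33.1 CPM without it.

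Gfi1b was ordered differently: E14.5 liver was highest at 201.3 CPM, yolk sac (124 CPM) and E12.5 liver (118 CPM) followed with overlapping counting intervals, and AGM was lowest at 45.8 CPM. Reads reached 14 of 48 cells in AGM (29.2%, 16.9% to 44.1%), 8 of 16 in yolk sac (50%, 24.7% to 75.3%) and 6 of 16 cells in each liver group. Cells ran from 0 to 632 CPM in AGM, 0 to 1397 CPM in yolk sac, 0 to 662 CPM in E12.5 liver and 0 to 1027 CPM in E14.5 liver. The median was 9.01 CPM in yolk sac and 0 in the other groups. These pooled levels rested on few cells. Without yolk sac cell 12 the yolk sac value was 73.7 CPM, without cell 4 the E12.5 value was 66.9 CPM, and without cell 7 the E14.5 value was 138 CPM.

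Among the paralogous basic helix-loop-helix factors, Tal1, needed for the earliest blood specification, was read in 34 of 48 cells in AGM and 10 of 16 in yolk sac. In liver it was read in 6 of 16 cells at E12.5 and 10 of 16 at E14.5. Its pooled level was 27.9 CPM in AGM, 18.2 in yolk sac, 16.5 CPM in E12.5 and 32.4 CPM in E14.5 liver. Median cells were at 25.3, 1.15, 0 and 6.85 CPM in the same order, and the highest cells at 153.3, 129.6, 105 and 484 CPM. The median cell was highest in AGM, and the highest E14.5 cell was cell 14. The E14.5 value was 16.8 CPM without cell 14, the yolk sac value 9.83 CPM without cell 11, and the E12.5 value 9.77 CPM without cell 4. Lyl1, which can stand in for Tal1 in adult stem cells, stood at 12.2 CPM in AGM (11.4 to 13.2), 2.33 in yolk sac (1.74 to 3.06), 15.9 CPM in E12.5 and 10.9 CPM in E14.5 liver. Lyl1 reads reached 33 of the 48 AGM cells and 9 of 16 yolk sac cells, but only 1 yolk sac cell reached 10 CPM, against 16 AGM cells. E12.5 cell 10 held 54.0% of that group's Lyl1 reads, and without it the value was 7.57 CPM.

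Lmo2, the bridging protein that joins Tal1 to GATA factors, was read in 46 of 48 AGM cells, in 15 of 16 yolk sac and E12.5 cells each, and in all 16 E14.5 cells. It stood at 296 CPM in AGM, 273 in yolk sac, 540 CPM in E12.5 and 608 CPM in E14.5 liver. AGM cells ran from 0 to 881 CPM (median 269) and yolk sac cells from 0 to 522 CPM (median 235). E12.5 cells ran from 0 to 1666 CPM (median 401) and E14.5 cells from 14.6 to 1677 CPM (median 551). Liver medians were above both E11.5 medians, with overlapping ranges. Gata2, a factor of early stem and progenitor cells, was found in 44 of 48 AGM, 12 yolk sac, 11 E12.5 and 15 E14.5 cells. It stood at 60.1, 66.6, 35.9 and 40.1 CPM in that order, with median cells at 32.4, 14.45, 6.76 and 17.2 CPM. Yolk sac cell 10 carried 30.4% of the yolk sac Gata2 reads. Fli1, an ETS factor of endothelial and blood cells, was read in 39 of 48 AGM, 13 yolk sac, 8 E12.5 and 11 E14.5 cells. Its pooled levels were 35.1, 38.2, 58.1 and 42.99 CPM, and its median cells stood at 13.3, 14.503, 0.567 and 7.81 CPM. For Fli1 the E12.5 pool was the highest while the median E12.5 cell was the lowest. Without E12.5 cell 11 the pool was 36.9 CPM, and without E14.5 cell 9 the E14.5 pool was 23.9 CPM.

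Spi1 was read in nearly every cell: reads reached 47 of 48 cells in AGM, 16 of 16 in yolk sac, 14 of 16 in E12.5 and 16 of 16 in E14.5 liver. It stood at 435 CPM in AGM and 429 CPM in yolk sac, with overlapping intervals, and at 332 and 345 CPM in E12.5 and E14.5 liver. AGM cells ran from 0 to 951 CPM (median 436), yolk sac cells from 93.7 to 909 CPM (median 390), E12.5 cells from 0 to 709 CPM (median 285) and E14.5 cells from 3.17 to 723 CPM (median 260.0). Myb was read in 41 AGM, 13 yolk sac, 12 E12.5 and 12 E14.5 cells. Its pooled levels were 64.9, 73.1, 104 and 112 CPM, with median cells at 49.7, 49.9, 29.4 and 71.8 CPM.

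Compared between genes per kilobase of exon, Spi1 and Lmo2 were the most abundant members in every group. Spi1 had 161.3 CPM per kilobase in AGM and Lmo2 137, and in E14.5 liver Lmo2 had 281 and Spi1 128. Gfi1b ranked next in every group, at 25 in AGM and 110.0 in E14.5 liver. The remaining 7 members lay between 1.295 (Lyl1 in yolk sac) and 25.5 (Gfi1 in E12.5 liver) CPM per kilobase. The labels do not say whether strand was used in counting, and Runx1, Gfi1, Lyl1 and Myb overlap another gene. The highest overlapping gene was Nfix, beside Lyl1. Nfix stood at 3.22, 1.57, 6.30 and 0.680 CPM in AGM, yolk sac, E12.5 and E14.5 liver. Lyl1 stood at 12.2, 2.33, 15.9 and 10.9 CPM in the same order, so Nfix was not low beside it in yolk sac and E12.5 liver. Whether Nfix reads were counted as Lyl1 was not tested. The other overlapping genes reached at most 2.41 CPM.

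**Figure D1:**
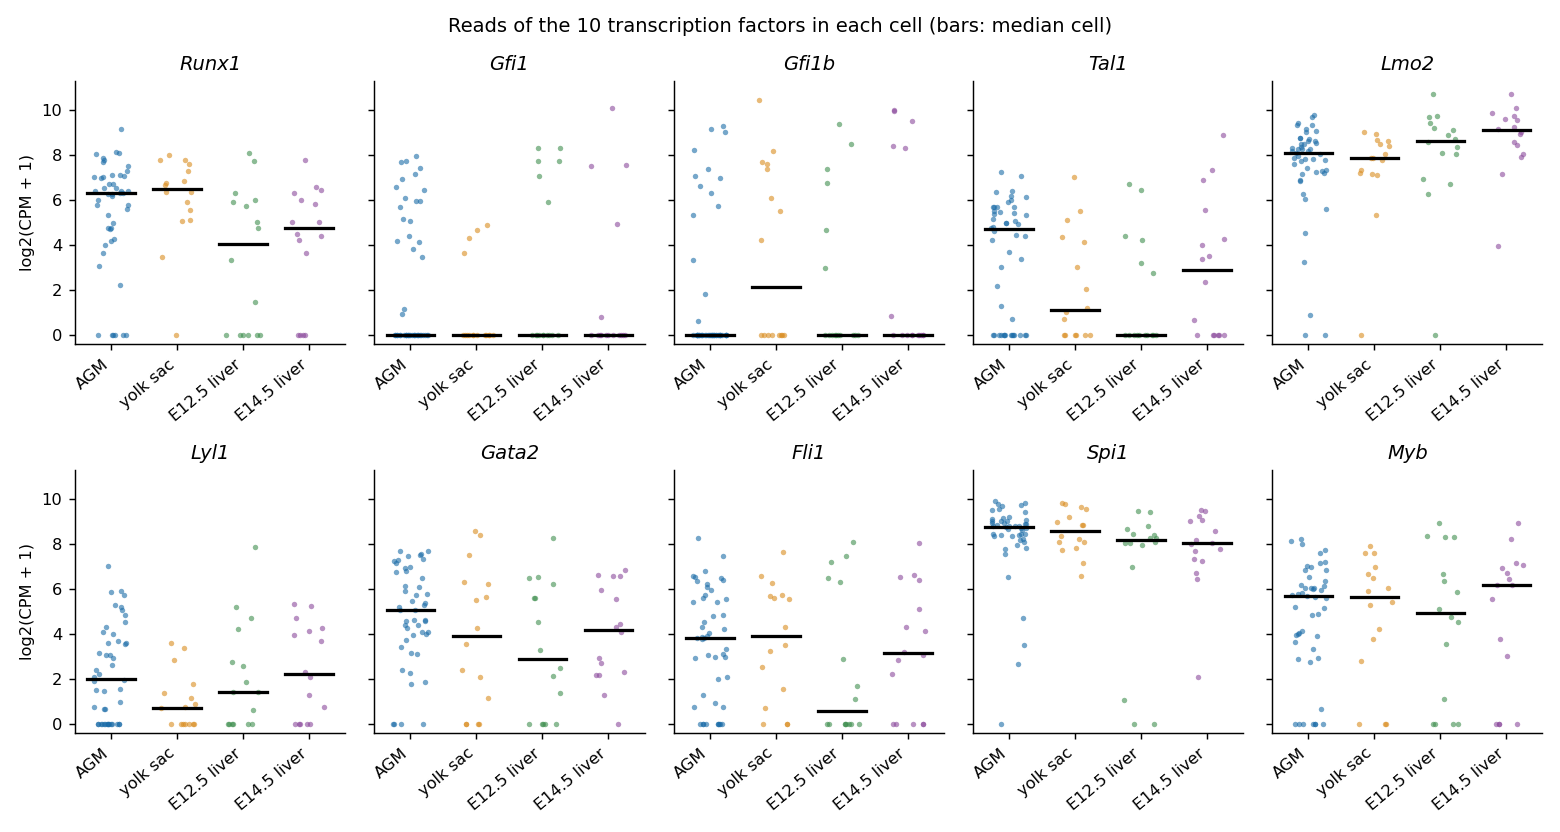
Each point is 1 cell, with log2(CPM + 1) on the vertical axis, the 4 groups on the horizontal axis and a bar at the median cell. Spi1 and Lmo2 were read in nearly every cell, while Gfi1 and Gfi1b were at 0 in most cells of most groups and high in a few.

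For all 10 members and all 4 comparisons the ranges of single cells overlapped, in 40 of 40 pairs of groups. Except in some pairs for Spi1 and Lmo2, both groups held a cell without a read, so their ranges had to overlap. The count of overlapping ranges therefore cannot show whether the groups were alike. The intervals of the shares of cells with a read also overlapped in 40 of 40 pairs. When the 4 groups were ordered by pooled CPM, 9 of the 30 pairs of neighbours had overlapping counting intervals. Among them were AGM and yolk sac for Spi1 and the liver stages for Gata2, Spi1 and Myb. The matching shares over all genes were not computed, so none of these counts is read as particular to the members.

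The yolk sac and AGM cells share age and labelled gate. Between them 1 member was at least 2-fold higher in yolk sac, against 8.61% of all 15239 genes with 30 reads or more, and 2 were at least 2-fold lower, against 21%. Gfi1b was the higher one, at a log2 ratio of 1.42. Gfi1 was lower at −2.41 and Lyl1 at −1.99. The median over the members was 0.050, where all genes had −0.20. Gfi1 kept its direction when any 1 cell was left out, with ratios between −2.82 and −2.16, and so did Lyl1 (−2.33 to −1.73). The Gfi1b ratio was 0.68 without yolk sac cell 12, which had 1397 CPM. Tal1 had a ratio of −0.59, and −1.42 without yolk sac cell 11. The other members, from Runx1 (0.28) to Lmo2 (−0.12), lay within 0.3 of 0. Among them Gata2 (0.14) was −0.29 without yolk sac cell 10 and −0.78 with only cells of 4000 or more genes. With only the 8 yolk sac cells that had a read of Cdh5 or Procr, the ratios were −1.68 for Gfi1, −1.54 for Lyl1 and 0.60 for Gfi1b. All 4 yolk sac cells with a Gfi1 read were among these 8, and all 4 had a Ptprc read. They were cells 1, 2, 3 and 6, which had the most genes detected in yolk sac (10823, 10727, 9848 and 7686). The part of gene detection in these overlaps was not tested. The 7 yolk sac cells with no Ptprc read held no read of Gfi1, where 3 reads in the pool of the 7 cells would be 0.345 CPM. The 8 had a median of 7498.5 genes detected and the other 8 a median of 4726. Of 26 endothelial marker genes, 17 were at least 2-fold lower in yolk sac, and the median sum of these markers per cell was 1606 CPM against 2531 CPM in AGM. The part of these differences in the Gfi1 and Lyl1 ratios was not tested.

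From AGM to E12.5 liver, 2 members were at least 2-fold higher (15.6% of all genes) and 0 were at least 2-fold lower (26%). The higher ones were both repressors, Gfi1b at 1.35 and Gfi1 at 1.12. Lmo2 (0.86), Fli1 (0.71) and Myb (0.67) lay above 0, and Gata2 (−0.73), Tal1 (−0.72), Runx1 (−0.46) and Spi1 (−0.39) below. The median member ratio was 0.51, where all genes had −0.20. Pools and median cells were ordered differently for some members. Fli1 and Myb had higher pools but fewer cells with a read and lower median cells in E12.5 liver, as given above. Gfi1b was at 0.54 without E12.5 cell 4, and Gfi1 at 0.83 without cell 15. Runx1 reached −1.03 without cell 13, Tal1 −1.42 without cell 4 and Gata2 −1.21 without cell 9. Lyl1 was 0.35 with all cells and −0.63 without cell 10. Lmo2 varied least among those above 0.5, from 0.66 to 0.97. Fli1 was 0.068 without cell 11. When only cells with 4000 or more genes were kept, Fli1 stood at 1.35, Gata2 at −1.65, Tal1 at −0.99 and Gfi1b at 1.83, while Gfi1 stood at 0.94, Lyl1 at −0.26, Myb at 0.12 and Runx1 near 0 as given above. Markers of other cell types differed as well: 10 of 13 erythroid genes and 6 of 9 myeloid genes were at least 2-fold higher in E12.5 liver, and 16 of 26 endothelial genes were at least 2-fold lower. Their part in the members' ratios was not tested.

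Between E12.5 and E14.5 liver no member differed by 2-fold or more in either direction (18.7% of all genes were higher and 18.2% lower). Ratios ran from −0.50 for Lyl1 to 0.93 for Tal1, with Gfi1b at 0.76, Fli1 at −0.43, Runx1 at −0.32 and Gfi1 at −0.25. The median member ratio was 0.078, where all genes had 0. These comparisons share E12.5 cells with the previous one and are not independent of it. Single cells moved several of them: Tal1 was 0.029 without E14.5 cell 14, Gfi1 was −1.27 without the same cell, and Gfi1b was 1.57 without E12.5 cell 4. Tal1 was 1.63 without E12.5 cell 4, and passed 2-fold in 11 of the 32 cases of a left-out cell. Each negative ratio given above changed sign without 1 E12.5 cell. Lyl1 was 0.47 without cell 10, Runx1 0.25 without cell 13, Fli1 0.22 without cell 11 and Gfi1 0.038 without cell 15. With only cells of 4000 or more genes Gata2 was 1.15 and Gfi1 −1.05, both past 2-fold, Tal1 was −0.41 and Gfi1b −0.11.

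The 4 erythroid-marked E14.5 cells differed from the other 12 in several members, and are described cell by cell because they were singled out by globin reads after the data had been seen. None of the 4 had a read of Fli1, which 11 of the other 12 carried, or of Gfi1, which 5 of the other 12 carried. Spi1 stood at 215.2, 102.8, 3.17 and 159.5 CPM in cells 3, 8, 13 and 16, where the lowest of the other 12 had 86.0 CPM. Gfi1b stood at 314, 1027, 0.794 and 0 CPM in the same cells. Tal1 was read in all 4, at 119, 46.1, 9.52 and 18.5 CPM, and Lmo2 in all 4, at 262 to 788 CPM. Gata1, the GATA factor of the red cell lineage, had 368, 243, 39.7 and 302 CPM in them and a read in 1 of the other 12. Without the 4 cells the E14.5 pools were 54.5 CPM for Fli1, 86.3 CPM for Gfi1, 408 CPM for Spi1 and 132 CPM for Myb. Runx1 stood at 61.2 CPM (57.4 to 65.1) in the other 12, an interval that overlaps that of E12.5 liver (60.9 to 68.2), and at 15.2 CPM in the 4. Over E12.5 liver the ratios without the 4 cells were −0.074 for Runx1, −0.090 for Fli1, 0.086 for Gfi1, 0.48 for Gfi1b and 0.78 for Tal1, and still none reached 2-fold.

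**Figure D2:**
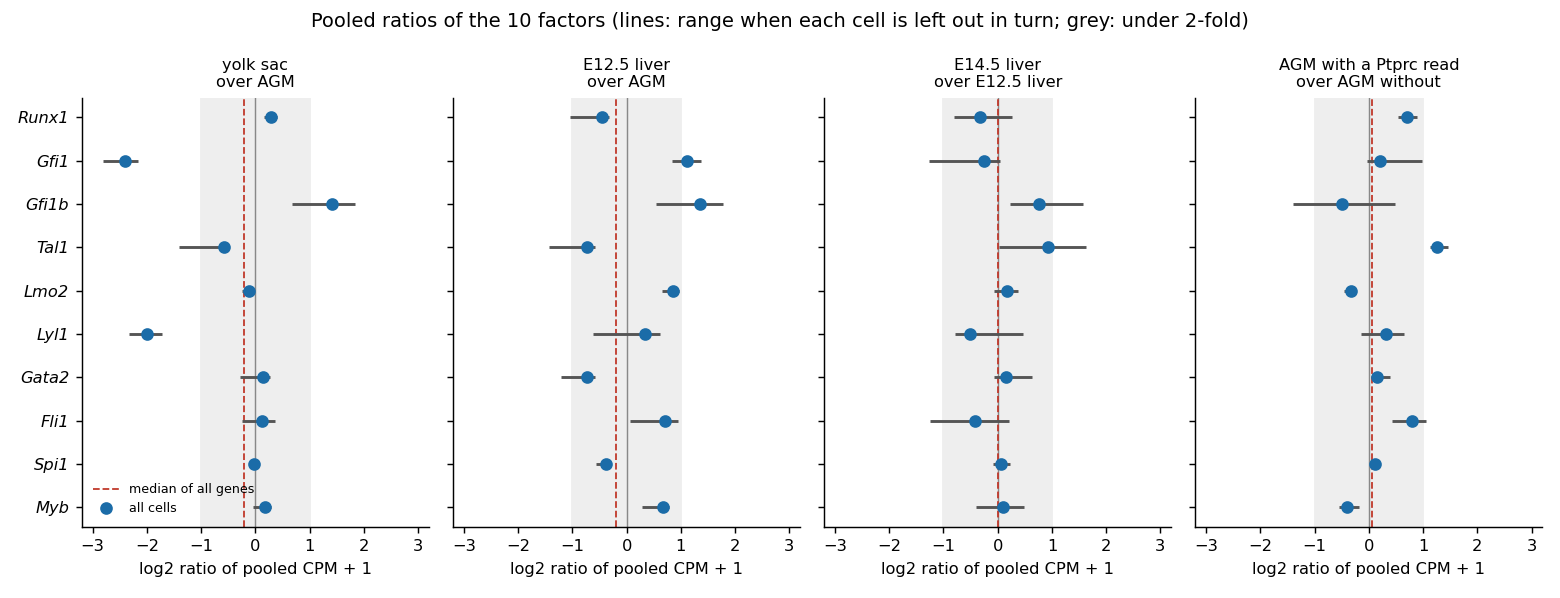
Points are log2 ratios of pooled CPM + 1 for the 10 factors in 4 comparisons, lines the range when each cell is left out in turn, the grey band ratios under 2-fold and the dashed line the median of all genes. Gfi1 and Lyl1 lie outside the band on the left for yolk sac, and the Gfi1b line enters the band in every comparison shown.

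AGM cells were then divided by Ptprc, which encodes the pan-haematopoietic surface protein CD45 and appears on pre-HSCs as they mature. A read was found in 28 of 48 AGM cells, at 130 CPM over those 28. The 28 cells had a lower median depth (1125743 reads against 1434387) and more genes detected (median 5763.5 against 5425) than the 20 without. Tal1 was the only member at least 2-fold higher with Ptprc, against 18.1% of all genes, and 0 were at least 2-fold lower, against 11.7%. The median member ratio was 0.18, where all genes had 0.050. Cells with Ptprc had Tal1 between 0 and 135 CPM with a median of 30.1, and cells without between 0 and 153.3 CPM with a median of 2.05. The pooled values were 37.8 CPM (35.8 to 39.97) and 15.2 CPM (13.8 to 16.8), a log2 ratio of 1.26, and 23 of 28 cells (82.1%, 63.1% to 93.9%) had a read against 11 of 20 (55%, 31.5% to 76.9%). Leaving out any 1 cell kept this ratio between 1.14 and 1.46. With CPM averaged over cells in place of the pool it was 0.74, and over AGM cells 1 to 16 alone 0.17.

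Runx1 and Fli1 followed with log2 ratios of 0.71 and 0.79. Runx1 stood at 108 CPM with and 65.4 CPM without Ptprc, with median cells at 84.3 and 42.7 CPM and near-equal shares of cells with a read (25 of 28 and 17 of 20). Fli1 stood at 43.3 and 24.6 CPM, and its ratio was 0.43 without AGM cell 45. Gfi1 had a ratio of 0.21 but a read in 15 of 28 cells with Ptprc (53.6%, 33.9% to 72.5%) and in 6 of 20 without (30%, 11.9% to 54.3%). AGM cell 23, which had no Ptprc read, held 46.4% of the Gfi1 reads on that side, and the ratio was 0.98 without it. Gfi1b (−0.50), Myb (−0.39) and Lmo2 (−0.33) were lower with Ptprc, and Spi1 (0.11), Gata2 (0.15) and Lyl1 (0.32) differed little. The Gfi1b ratio was 0.48 without AGM cell 47 and −1.39 without cell 40, so its direction depended on single cells.

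Ptprc reads were uneven over the AGM cell numbers, which the labels do not tie to a plate, day or embryo: 12 of cells 1 to 16, 5 of cells 17 to 32 and 11 of cells 33 to 48. The median number of genes was 6572, 5483.5 and 4493.5 in these 3 runs. Tal1 was higher with Ptprc within each run, at 37.1 against 32.8 CPM, 28.6 against 13.9 CPM and 43.6 against 10.1 CPM. Runx1 was higher within each as well, at 100.4 against 40.1, 95.6 against 72.0 and 122 against 61.2 CPM. Fli1 was lower with Ptprc in the first run (32.2 against 46.1 CPM) and higher in the others. The first run had only 4 cells without Ptprc.

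**Figure D3:**
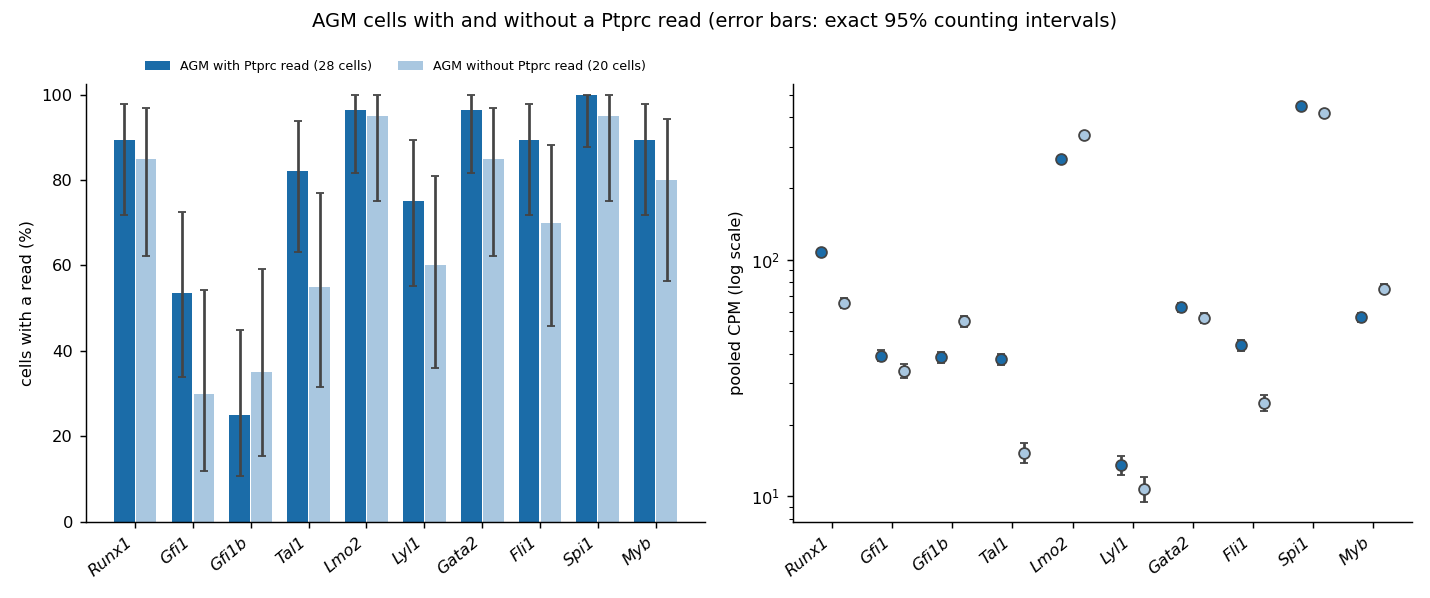
Left, the percentage of AGM cells with a read of each factor, and right, pooled CPM on a log axis, for the 28 cells with and the 20 cells without a Ptprc read, with exact 95% counting intervals. Tal1, Runx1 and Fli1 lie higher with Ptprc on the right, while all pairs of share intervals on the left overlap.

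Reads of Gfi1 and Gfi1b were then compared cell by cell. In AGM, E12.5 liver and E14.5 liver each was read in fewer than 50% of cells, and in yolk sac Gfi1 in 25% and Gfi1b in 50%. Whether their overlap departs from what these shares give was not tested in any group. In AGM 4 cells had both, 17 only Gfi1, 10 only Gfi1b and 17 neither. In E14.5 liver 1 cell had both, 4 only Gfi1, 5 only Gfi1b and 6 neither. In yolk sac all 4 cells with Gfi1 also had Gfi1b, 4 had Gfi1b alone and 8 neither. The 4 yolk sac cells with both were those with the most genes detected in that group. In E12.5 liver 4 had both, 2 and 2 had 1 of them and 8 neither. Among AGM cells with Ptprc 3 had both, 12 only Gfi1 and 4 only Gfi1b. Without Ptprc the numbers were 1, 5 and 6. Runx1 was read in 18 of the 21 AGM cells with Gfi1 and in 13 of the 14 with Gfi1b, against 42 of all 48. Gata1 was not read in any AGM or yolk sac cell. In E14.5 liver it was read in 4 of the 6 cells with Gfi1b, which were the erythroid-marked cells 3, 8 and 13 and cell 7 with 0.657 CPM. Tal1 and Lyl1 were read together in 26 AGM cells, with 8 carrying only Tal1, 7 only Lyl1 and 7 neither. A gene without a read in a cell may lie under the limit of detection of single-cell libraries.

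**Figure D4:**
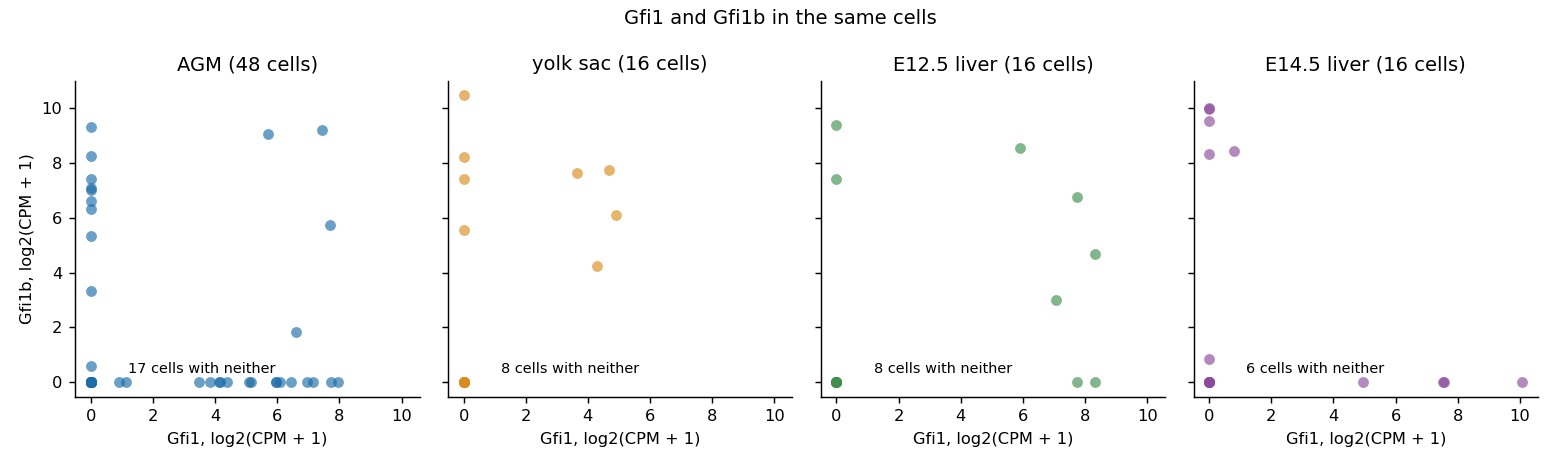
Each point is 1 cell, with Gfi1 on the horizontal and Gfi1b on the vertical axis as log2(CPM + 1), and 1 panel per group. In AGM most cells lie on an axis, with 17 at Gfi1 alone and 10 at Gfi1b alone, whereas all 4 yolk sac cells with Gfi1 lie off the axes. Those 4 had the most genes detected of the yolk sac cells.

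Single cells carried most of the set at once. The number of members with a read had a median of 8 in AGM (3 to 10), 7 in yolk sac (4 to 10), 6 in E12.5 liver (0 to 10) and 7 in E14.5 liver (5 to 9). At least 8 members were read in 28 of the 48 cells in AGM, 6 of 16 in yolk sac and 5 of 16 in either liver group. The number was related to the genes detected in a cell, with Spearman rho of 0.42 in AGM over 48 cells and 0.63, 0.66 and 0.43 in yolk sac, E12.5 and E14.5 liver over 16 each. After thinning each cell to 690000 reads, which left out 5 AGM, 2 E12.5 and 2 E14.5 cells, the medians were 8, 6.5, 6.5 and 7. In AGM, 21 of 28 cells with Ptprc and 7 of 20 without had 8 or more members. The cell with none was E12.5 cell 8, which had 1011 genes and erythroid markers summing to 14027 CPM. The part of either in its missing members was not tested. AGM cells 39 and 45 had only 3 members each. Cell 45 had the highest Ptprc of all AGM cells (709 CPM) and the highest Fli1 (310 CPM), with Spi1 at 542 CPM, Lmo2 at 0.832 CPM, Kit at 232.2 CPM and Procr at 348 CPM. The myeloid marker Lyz2 had 419 CPM in it, below the AGM pool of 673 CPM. Csf1r, Cd68 and Mrc1 had no read in it, and their AGM pools were 13.1, 26.9 and 0.0166 CPM. The other genes of the myeloid list were not looked up in this cell. Cell 39 had Spi1 at 349 CPM, Runx1 at 25.5 CPM and Gata2 at 15.1 CPM, no read of Ptprc or Kit, and Cdh5 at 132 CPM.

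**Figure D5:**
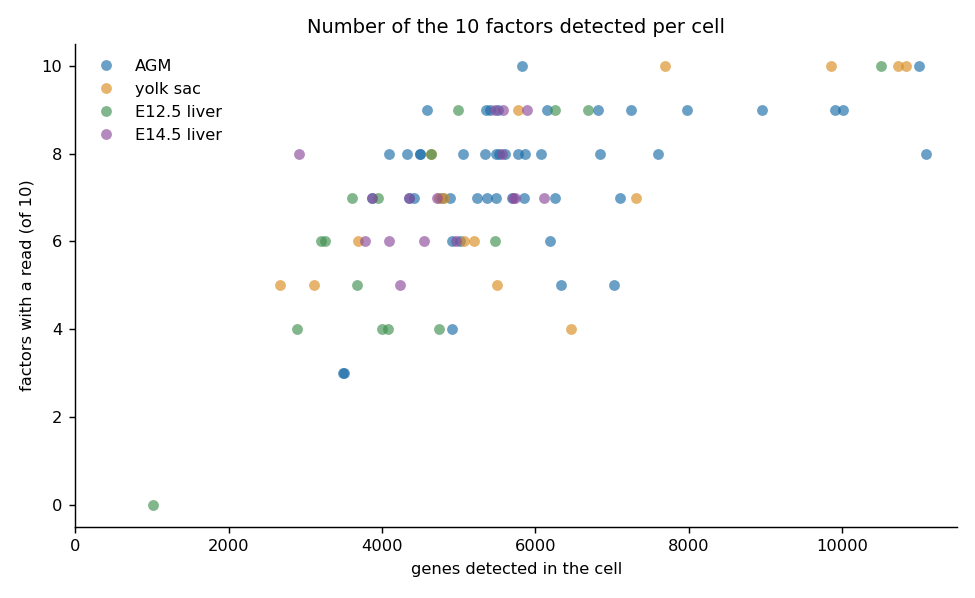
Each point is 1 cell, with the genes detected in it on the horizontal axis and the number of the 10 factors with a read on the vertical axis, coloured by group. Cells with more genes tend to carry more of the factors, and E12.5 cell 8, with 1011 genes and none of the factors, is the lowest point.

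The proteins that work with the members were examined as lists. Of 13 partners, which include the RUNX subunit Cbfb, the LIM-binding protein Ldb1 and the E proteins, 0 differed by 2-fold or more between yolk sac and AGM or by Ptprc. Of all genes, 8.61% were at least 2-fold higher and 21% lower in yolk sac, and 18.1% higher and 11.7% lower with Ptprc. From AGM to E12.5 liver 3 partners were at least 2-fold higher (15.6% of all genes) and 2 lower (26%), with a median of 0.21. These lists are short, and their counts are not read as particular to them. Zfpm1 (FOG-1, a GATA cofactor) had 27.4 CPM in E12.5 liver and 8.10 CPM in AGM, a log2 ratio of 1.64, and E12.5 stood at 16.2 CPM without cell 4. The ETS repressor Etv6 had 208.1 and 89.9 CPM, a ratio of 1.201. The E proteins Tcf12 (−1.83) and Tcf4 (−1.46) were lower, and in E12.5 liver they stood at 2.16 CPM without cell 2 and 9.86 CPM without cell 11. Cbfb had 23.7 CPM with and 48.5 CPM without Ptprc in AGM, a ratio of −0.9997, just under 2-fold. Of the 5 GFI corepressor genes, 0 differed by 2-fold or more in either of the AGM comparisons with other tissues or by Ptprc, and Kdm1a stood at 81.7 CPM in AGM, 62.1 in yolk sac, 140.7 CPM in E12.5 and 72.8 CPM in E14.5 liver. Rcor1 was the 1 corepressor past 2-fold between liver stages, at −1.06, where 18.2% of all genes were at least 2-fold lower.

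Of 18 other transcription factors of blood and vessel, 17 had 30 reads or more. In yolk sac 2 were at least 2-fold higher than in AGM (8.61% of all genes) and 5 lower (21%). Counts over so few genes are small, and none given here is read as particular to this list. Etv2, the ETS factor that starts the vessel and blood programme, had 59.7 CPM in AGM (34.6 CPM without AGM cell 46) and 0.807 CPM in yolk sac, and no read in either liver group. The lymphoid regulator Ikzf1 had 19.6 CPM in AGM, 48.9 in yolk sac and 74.9 CPM in E12.5 liver (49.0 CPM without E12.5 cell 7). In E12.5 liver 4 were higher than in AGM (15.6% of all genes) and 3 lower (26%). The erythroid and megakaryocyte factor Nfe2 stood at 604 CPM in E12.5 liver against 224.96 CPM in AGM. Between liver stages 2 were higher (18.7% of all genes) and 2 lower (18.2%). The higher ones were Klf1 (7.78) and Gata1 (5.33), the latter read in the 4 erythroid-marked cells described above and in 1 other E14.5 cell. With Ptprc in AGM 4 were higher (18.1% of all genes), among them Gata3 (1.74), Ikzf1 (1.14) and Klf2 (1.09), and 0 lower (11.7%). In AGM, Kit had a read in all 28 cells with Ptprc (117 CPM) and in 15 of 20 without (62.1 CPM).

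Over the 48 AGM cells the members were only weakly related to each other. Of the 45 pairs, Tal1 and Lyl1 had the highest Spearman rho, 0.31, and Gfi1 and Lmo2 the lowest, −0.31. Genes with a pattern most like that of Runx1 among 4871 candidates, by rho of log2(CPM + 1), were Eif3d (0.48), Sf1 (0.46), Pnn (0.46), Dusp5 (0.46) and Psph (0.46). Those most like Gfi1 among 4872 were Bcl7a (0.53), Camk2d (0.48), Rab21 (0.48), Cdc7 (0.45) and Cln6 (0.44). These are the highest of all values computed over cells that differ in depth, and in sparse counts they are given as a description only.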

How the data were processed

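The table holds raw read counts per gene, deposited by the authors as whole numbers for 96 cells of 4 groups. Per the labels' protocols, cDNA came from a SMART-Seq kit and libraries from 12 PCR cycles. Per the submitters' processing notes, FastQC, Trimmomatic 0.36, STAR, HTSeq and the mm10 build were used. Their settings and the annotation are not given in the sources used here. All columns were matched to samples by name. Rows with 1 symbol were summed (19949 rows to 19836 genes), and no cell fell under the minimum of 1000 genes. Reads were summed per group, scaled to 1000000 reads (CPM) and compared as log2 ratios after adding 1 CPM, with 2-fold as the call, using Python 3.11.15, pandas 2.3.3 and SciPy 1.17.1. The code was tested on simulated data. Gene positions and exon lengths are from GENCODE (GRCm38). Each group is 1 sample, so no test was made. All 10 members, Ptprc, the genes of the sort markers, at most 4 genes per list and comparison with the largest ratio (at least 30 reads, at most 50% of the higher group's reads from 1 cell), and the 5 genes most like Runx1 and Gfi1 could be named, the latter with a read in at least 50% of AGM cells. Erg, Rcor1 and Kdm1a stand among the lists, and AGM cells 39 and 45 were singled out after their values were seen. The members, lists and alternatives were chosen with earlier results of these data known. No doublet caller was run, since wells were sorted to hold 1 cell.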

Additional observations from a re-analysis of the deposited data

How the results depend on the processing

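No paired analysis was possible because cell numbers name no animal, litter or day, and no result comes from a test. Counts of members past 2-fold are small and moved by 1 member at most alternatives that changed them. An unchanged count can still hold other members. For yolk sac over AGM, 1 higher became 0 with at least 4000 genes per cell, at 4-fold, and with only yolk sac cells that had Cdh5 or Procr, and ran from 0 to 1 when each cell was left out. The 2 lower became 1 with 10 CPM added and at 4-fold, and ran from 2 to 3 over left-out cells. For E12.5 liver over AGM, 2 higher became 1 with CPM averaged over cells, with thinned reads and with 10 CPM added, became 0 at 4-fold, and ran from 1 to 2 over left-out cells. The count stayed at 2 with at least 4000 genes, but Gfi1 fell under 2-fold and Fli1 (1.35) passed it. With AGM cells 1 to 16 only it also stayed at 2, while Gfi1 fell under 2-fold and Myb (1.07) passed it. The 0 lower became 1 with at least 4000 genes and with AGM cells 1 to 16 only, and ran from 0 to 1. For E14.5 over E12.5 liver, 0 higher became 2 with CPM averaged over cells, 1 with thinned reads and 1 with at least 4000 genes, and ran from 0 to 2. The 0 lower became 1 with thinned reads and with at least 4000 genes, and ran from 0 to 1. For AGM cells by Ptprc, 1 higher became 0 with CPM averaged over cells, with 10 CPM added and at 4-fold, and 3 with AGM cells 1 to 16, where only 4 cells lack Ptprc, and ran from 1 to 2. The 0 lower became 1 with AGM cells 1 to 16, and ran from 0 to 1. The other 68 alternative values stayed close. For these counts that meant within 1.5 times, and for the median number of members per cell, also among the 68, within 1 standard deviation. The 68 include counts with median-of-ratios scaling, which shifts yolk sac over AGM by 0.13 on the log2 scale. They also include those with 10 or more Ptprc reads against none, without E12.5 cell 8, and without the minimum of 30 reads, which could not move a count. Of the alternatives for single members, 339 stayed close and 38.4% moved. Removing the minimum of 30 reads changed only the background, for example to 6.76% higher in yolk sac over 19836 genes. Causes of these moves were not tested. Depth limits the low members most: in the 16-cell groups 3 reads in the pool of all cells correspond to 0.134 to 0.157 CPM. Within 1 cell 3 reads correspond to a higher CPM, so these values are no limit for detection in a cell.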
